A study of Mus musculus with 2 samples.

Results

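The genes described here are antisense genes that were well measured in RNA from macrophage chromatin: genes whose transcripts are all annotated as antisense and that reached 5 TPM (transcript abundance scaled by length and by the total of the library) or more in both libraries. Of 55536 annotated genes, 2948 had only antisense transcripts, and 112 of these reached the level; Kcnq1ot1, Zfas1, Gas5 and the Snhg genes were to be left out by name, and this removed 0 genes. The genes were thus chosen by their TPM in both libraries, so their levels are given as a description and were not tested. The RNA came from primary bone marrow-derived macrophages of strain C57BL/6J, cells grown from marrow in culture, which had been given Lipid A, the part of lipopolysaccharide that Toll-like receptor 4 recognises, at 100 ng/ml for 75 min. Total RNA of the chromatin fraction was depleted of ribosomal RNA and sequenced in 2 libraries of 1 group, replicate 1 from 250 ng and replicate 2 from 500 ng of RNA, with fragments of 250 to 400 bases; age and sex were not collected, per the labels. Both libraries carry the same donor label, so the SD between them may describe cultures rather than animals, and no untreated cells were analysed here.

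An antisense transcript is read from the DNA strand opposite to a protein-coding gene, here called the sense gene, and may overlap its exons, lie within its introns or start back to back with it. Such transcripts are often spliced, retained in the nucleus and present at low copy number. Some act on the sense gene in cis, the textbook case being Airn, an imprinted transcript whose passage across the promoter of Igf2r silences that gene on the same chromosome, while for most no function is known.

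The sequences that best show the range of these genes are the windows at the RefSeq starts of 6 of them. F630028O10Rik, A530040E14Rik and Gm16712 were higher in replicate 2, Gm26885 was higher in replicate 1, Il1bos is named after the cytokine gene it opposes, and Airn is the known imprinted transcript. RefSeq (GRCm38.p6) had a promoter window under the symbol of 31 of the 112 genes, and for 20 of these the RefSeq start lay within 500 bases of the GENCODE start used here. The windows run 5′ to 3′ on the strand of the antisense gene, from 250 bases before the RefSeq start through the first 50 bases of the transcript. Capitals mark matches, on either strand, to TATAAA (the TATA box), TGANTCA (the AP-1 site), the core of the interferon-stimulated response element (GAAA, any 2 bases, GAAA) or GAGGAAGT (a site of the myeloid factor PU.1).
F630028O10Rik: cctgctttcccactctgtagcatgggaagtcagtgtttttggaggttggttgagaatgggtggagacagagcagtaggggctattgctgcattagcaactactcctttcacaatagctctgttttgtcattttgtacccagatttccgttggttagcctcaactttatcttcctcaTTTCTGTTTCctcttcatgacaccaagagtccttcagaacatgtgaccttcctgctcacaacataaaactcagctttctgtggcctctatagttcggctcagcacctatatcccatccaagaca
A530040E14Rik: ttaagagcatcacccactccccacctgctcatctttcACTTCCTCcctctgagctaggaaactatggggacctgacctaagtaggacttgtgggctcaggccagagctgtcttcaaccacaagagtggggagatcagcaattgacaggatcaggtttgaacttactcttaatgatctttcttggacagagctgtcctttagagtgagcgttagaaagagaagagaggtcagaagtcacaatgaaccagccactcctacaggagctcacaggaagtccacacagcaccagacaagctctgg
Gm16712: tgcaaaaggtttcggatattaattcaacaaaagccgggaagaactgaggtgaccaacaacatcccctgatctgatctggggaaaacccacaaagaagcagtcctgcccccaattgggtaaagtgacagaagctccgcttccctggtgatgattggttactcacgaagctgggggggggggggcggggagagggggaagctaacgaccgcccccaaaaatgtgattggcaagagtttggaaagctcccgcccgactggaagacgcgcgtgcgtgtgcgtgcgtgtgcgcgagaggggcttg
Gm26885: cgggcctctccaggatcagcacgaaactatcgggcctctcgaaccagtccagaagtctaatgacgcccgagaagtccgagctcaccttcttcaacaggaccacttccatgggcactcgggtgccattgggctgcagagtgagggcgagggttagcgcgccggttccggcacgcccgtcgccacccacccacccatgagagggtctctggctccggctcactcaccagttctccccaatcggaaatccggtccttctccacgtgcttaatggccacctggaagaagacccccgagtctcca
Il1bos: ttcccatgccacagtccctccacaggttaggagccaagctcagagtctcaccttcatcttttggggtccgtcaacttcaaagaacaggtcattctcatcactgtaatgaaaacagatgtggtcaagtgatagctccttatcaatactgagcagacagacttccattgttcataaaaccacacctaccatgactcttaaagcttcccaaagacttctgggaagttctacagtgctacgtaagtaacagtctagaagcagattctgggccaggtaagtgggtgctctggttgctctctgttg
Airn: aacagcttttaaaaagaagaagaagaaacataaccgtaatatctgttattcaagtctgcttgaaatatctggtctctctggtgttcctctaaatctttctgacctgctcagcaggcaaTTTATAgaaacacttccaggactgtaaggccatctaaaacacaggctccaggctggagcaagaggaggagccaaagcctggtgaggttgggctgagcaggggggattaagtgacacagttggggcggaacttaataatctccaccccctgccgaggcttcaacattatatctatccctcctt
The windows lie at chrX:96239676-96239975 (plus strand), chr1:85105843-85106142 (plus), chr17:55959352-55959651 (minus), chr17:29491495-29491794 (minus), chr2:129369652-129369951 (plus) and chr17:12741061-12741360 (plus), in the order shown. The RefSeq start was 147 bases from the GENCODE start for A530040E14Rik and 381 bases for Gm26885, and at most 20 bases away for the other 4. The transcript at chr17:29461195-29491925 (minus) held 99.8% and 98.1% of the TPM of Gm26885. The window of Gm26885 lies wholly downstream of the start of that transcript, so it does not show the start that was measured.

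Motif matches in these windows were few. The interferon-stimulated response element core was found in 2 of the 20 windows (10%), those of F630028O10Rik and Rab10os, against 3.44% of all 32851 RefSeq windows of the same length. GAGGAAGT was also found in 2 (10%), those of A530040E14Rik and Gm16174, against 3.20% of all windows. TATAAA was found in 1, that of Airn (5%, against 13.6% of all), and TGANTCA in 0 (against 7.81%). The TATAAA match of Airn was on the strand opposite to Airn. Matches were taken at any position of a window, so this one need not be a working TATA box. A loose form of the NF-kB site (GGG, any 5 bases, CC), which can overlap other GC-rich motifs, was found in 10 windows (50%), next to 50.8% of all windows. CG pairs numbered 17 and 21 in the windows of Gm16712 and Gm26885 and from 1 to 3 in the other 4 windows shown, against a median of 7 over all windows.

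The antisense genes were a small part of the RNA. They held 56785 expected counts in replicate 1 and 159521 in replicate 2, which is 0.265% and 0.538% of the 21453617 and 29638814 counts on annotated genes. Their median level was 10.4 TPM in replicate 1 and 20.8 TPM in replicate 2, and the median of their mean levels was 15.5 TPM. By mean level, 29 lay from 5 to under 10 TPM, 43 from 10 to under 20, 31 from 20 to under 50, and 9 at 50 TPM or more. By gene type, 113 of 2959 antisense genes (3.82%) reached the level, the extra gene being Zeb2os, which also has transcripts of another type. The same level was reached by 56 of 5854 lincRNA genes (0.957%), 4 of 190 bidirectional promoter lncRNA genes (2.11%) and 4133 of 22028 protein-coding genes (18.8%). Of the 2948 antisense genes, 1476 were listed at 0 in both libraries.

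TPM was higher in replicate 2 for 106 of the 112 genes, a tilt that other genes shared: the median TPM ratio of replicate 2 over replicate 1 was 2.05 for the antisense genes and 1.73 for the 7633 protein-coding genes of 1 TPM or more. In bulk RNA, fewer cells that make a transcript and less of it per cell cannot be told apart. Of 10 macrophage markers, 9 reached 1 TPM in both libraries, with summed levels of 552 and 854 TPM. Of the T cell, B cell, neutrophil, erythroid and stromal markers, 0 reached 1 TPM in both, and no such list summed to more than 1.53 TPM.

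**Figure D1:**
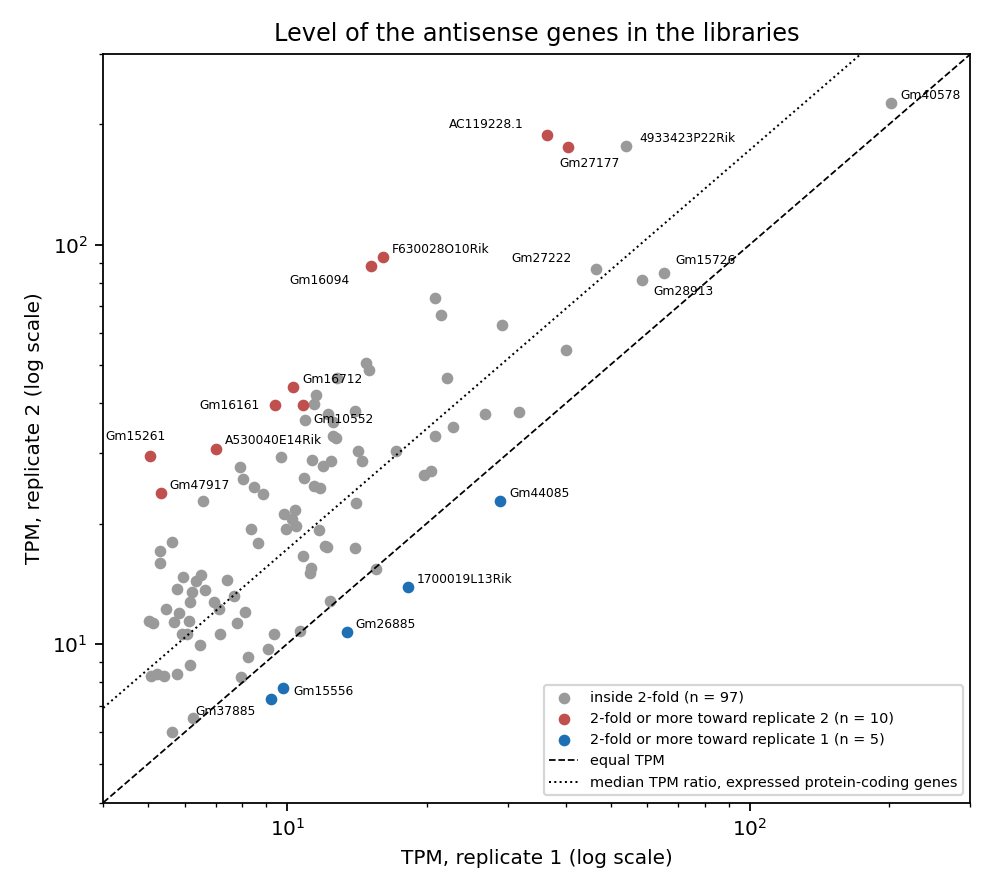
TPM of each of the 112 antisense genes in replicate 1 (horizontal, log scale) and replicate 2 (vertical, log scale); the dashed line marks equal TPM and the dotted line the median TPM ratio of expressed protein-coding genes, 1.73. Points are coloured by the ratio of scaled counts: 10 genes were 2-fold or more higher in replicate 2 and 5 in replicate 1, and 106 of 112 lie above the dashed line.

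Gm40578 was the highest of the antisense genes, at 202 TPM in replicate 1 and 226 TPM in replicate 2 (mean 214 ± 17.0, SD, n = 2). The gene lies at chr12:111450405-111500840 on the minus strand (mm10) and ends inside Tnfaip2, a gene induced by tumour necrosis factor, with 314 of its 1068 exonic bases (29.4%) opposite exons of that gene. Tnfaip2 itself stood at 1498 and 2211 TPM, 8.65-fold above the antisense gene. Since Gm40578 also overlaps Gm266 on its own strand and shares exon sequence with Tnfaip2, its fractional counts may hold reads of either neighbour.

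Next came 4933423P22Rik, at 54.1 and 177 TPM (115 ± 86.6). It starts 66 bases from a start of Ptprj, a receptor tyrosine phosphatase, at chr2:90479236-90488425 on the plus strand, and its exons overlap Ptprj introns alone. Ptprj stood at 65.0 and 111 TPM, so the antisense gene lay below it in replicate 1 and above it in replicate 2. AC119228.1, at chr19:29373417-29384471 on the minus strand, lies wholly inside Cd274, which encodes the checkpoint ligand PD-L1. It was at 36.4 TPM in replicate 1 and 188 TPM in replicate 2 (112 ± 108), and Cd274 at 58.4 and 216 TPM. Both genes of that pair were thus higher in replicate 2, and each library kept the sense gene above the antisense gene.

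Gm27177 stood at 40.5 and 176 TPM (108 ± 95.6), where Loxl2, the collagen cross-linking enzyme gene it overlaps most, was at 0.480 and 0.450 TPM. A single transcript, at chr14:69680584-69683286 on the minus strand, carried 96.0% of the TPM of Gm27177 in replicate 1 and 98.3% in replicate 2. In the second quantification, described below, the means were 100 TPM for Gm27177 and 16.6 TPM for Loxl2. Gm15726 (65.2 and 85.1 TPM) and Gm15247 (31.8 and 38.1 TPM) both lie inside Mid1, a ubiquitin ligase gene at 223 and 226 TPM. The means of Gm15726, Gm15247 and Mid1 in the second quantification were 186, 133 and 1329 TPM. Gm27222 (46.5 and 86.9 TPM) lies in introns of Slc25a37, the mitochondrial iron importer mitoferrin, at 156 and 361 TPM. That order was reversed in the second quantification (mean 400 against 375 TPM). F630028O10Rik, whose start region is shown above, had no sense gene within 5000 bases and stood at 16.1 and 93.1 TPM (54.6 ± 54.5), low in replicate 1 and high in replicate 2.

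The genes ranked from 9 to 20 ranged from 28.9 to 51.7 TPM in mean level. In order they were Gm16094 beside Sp110, Gm17590 in Cdk6, Gm13556 in Dennd1a, Gm45515 in Swap70, Gm37787 in Slamf7, Gm15247 in Mid1, 1700060J05Rik in Slc44a1, Gm29083 in Nrp2, Airn, Gm16006 in Zhx2, Gm17017 across the end of Sp140, and Gm17227 in Mark2. No neighbours in this order differed by more than the larger of their SDs between the libraries; among these genes the SD was as large as 51.6 TPM for Gm16094 and as small as 4.51 TPM for Gm15247.

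Airn was at 26.8 TPM in replicate 1 and 37.6 TPM in replicate 2 (32.2 ± 7.66), close to Igf2r, the receptor that clears insulin-like growth factor 2, at 39.9 and 32.9 TPM. Igf2r was above Airn in replicate 1 and below it in replicate 2. Airn starts inside an intron of Igf2r and runs across its 5′ end for 118826 bases, sharing 0 exonic bases with it. The counts of Airn as a gene were whole numbers in both libraries, while those of some of its transcripts were fractions. Transcripts starting at the Airn promoter held most of its TPM, while 1 annotated transcript further in, at chr17:12815931-12830335, held 24.4% and 27.7%. Of other antisense genes listed by name, Tsix, Nespas, Hotairm1 and Dlx6os1, annotated as antisense, were all under 1 TPM in both libraries. The rest of that list fell outside the rule by transcript type. Among them Gm14023 was at 106 and 159 TPM and Zeb2os at 14.9 and 36.2 TPM. Ptgs2os2 was at 0.560 and 1.56 TPM, and Ptgs2os, Foxd2os and Hoxa11os were under 1 TPM in both libraries.

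For 6 of the genes the symbol itself names the sense gene, and for all 6 the sense gene had the higher mean level. Il1bos, opposite the inflammatory cytokine gene Il1b, was at 5.46 and 12.2 TPM (8.86 ± 4.80), and Il1b at 321 and 483 TPM, 45.4-fold higher in mean level. This was the widest gap among all pairs in which the sense gene was the higher. Il1bos runs across the 5′ end of Il1b at chr2:129369897-129375748 and shares 25 exonic bases with it. Kdm6bos, inside the histone H3K27 demethylase gene Kdm6b, was at 15.5 and 15.4 TPM, against 97.9 and 99.0 TPM of Kdm6b. Aknaos starts 155 bases from a start of Akna, an AT-hook protein gene, and was at 7.42 and 14.4 TPM against 111 and 137 TPM.

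Zmiz1os1, across the 5′ end of the transcriptional coactivator gene Zmiz1, was at 7.96 and 8.27 TPM against 42.0 and 64.2 TPM. Galnt6os, inside the glycosyltransferase gene Galnt6, was at 6.16 and 8.86 TPM against 21.1 and 27.5 TPM. Rab10os was the named gene nearest in level to its partner: it was at 6.94 and 12.7 TPM, and the vesicle transport GTPase gene Rab10 at 5.34 and 15.1 TPM. There the order differed between the libraries.

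The sense genes of 9 antisense genes were on lists of genes of the Lipid A response or of macrophage identity. Of 35 NF-kB primary response genes, 3 had such a partner: Tnfaip2 and Il1b, described above, and Bcl3, an atypical IkB protein gene. Gm16174, in introns of Bcl3, was at 9.07 and 9.68 TPM on only 44 and 53 counts, against 37.4 and 64.8 TPM of Bcl3. Of 19 genes of the TLR4 pathway, Ikbke, which encodes a kinase upstream of IRF3, was opposed by 2 antisense genes. Gm28913 was at 58.6 and 81.8 TPM and Gm28914 at 20.5 and 27.1 TPM, where Ikbke was at 602 and 684 TPM. All 3 genes of that locus had the higher TPM in replicate 2, like most genes, but the lower TMM-scaled counts there (described below), with log2 ratios of -0.41, -0.54 and -0.70 for Gm28913, Gm28914 and Ikbke.

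Of 22 immediate early genes, the kinase gene Pim1 had a partner: Gm26885, with 20 annotated transcripts, was at 13.4 and 10.7 TPM against 150 and 247 TPM of Pim1. Of 10 feedback genes, Cd274 and Slfn2 had one. Gm20234 runs across the 3′ end of the quiescence gene Slfn2 and overlaps its introns alone. Gm20234 was at 12.6 and 36.0 TPM against 67.3 and 178 TPM of Slfn2, and the order of the means was the reverse in the second quantification. Of 16 macrophage identity genes, the transcription factor gene Runx1 was opposed by Gm26626 at 5.08 and 8.31 TPM, against 81.4 and 162 TPM. Of 23 interferon and IRF response genes, 0 had a well measured antisense partner. All these counts are small, next to 98 distinct sense genes among 22028 annotated protein-coding genes, and nothing is read from them about any list. In addition, and chosen after its values were seen, Gm47079 overlapped the adhesion molecule gene Icam1 over 511 exonic bases, although its largest overlap was with Icam4; it was at 5.41 and 8.30 TPM and Icam1 at 281 and 473 TPM.

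A sense gene was found for 108 of the 112: by symbol for 6, as the protein-coding gene with the largest overlap on the opposite strand for 101, and by the nearest start for 1. These were 98 distinct genes, since 10 of them, among them Ikbke, Mid1, Sp140, Cdk6, Etv6 and Zhx2, had 2 antisense genes each. The sense gene itself reached 5 TPM in both libraries for 98 of 108 (90.7%), and the median of the sense gene means was 68.8 TPM. For the other antisense genes, most of which were near 0, it did so for 607 of 2721 (22.3%), with a median of 0.340 TPM. That difference is a description of these libraries and was not tested.

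The sense gene was higher than the antisense gene in most pairs. The median ratio of sense over antisense was 4.20-fold in mean TPM, with quartiles of 1.52 and 8.25, and on the log2(TPM + 0.1) scale the antisense gene lay at a median of -2.06 relative to the sense gene. In 20 pairs the sense gene was 10-fold or more higher. After Il1bos the widest gaps were those of Gm15629 in the actin-bundling gene Lcp1 (32.8-fold), CR974462.3 in the bromodomain gene Brd2 (30.9-fold), Gm44649 in Iqgap1 (27.4-fold), Gm28914 in Ikbke (27.0-fold) and Gm15701 in Rasa4 (25.7-fold). The order then ran through AC133523.2 in the choline kinase gene Chka (19.5-fold), Gm26674 in Sash1 (18.3-fold), Gm19412 in the antigen-loading gene Tapbp (18.3-fold) and Gm26626 in Runx1 (18.2-fold). Across 107 pairs, the levels of antisense and sense gene had a Spearman correlation of 0.298, a description over points that share their libraries.

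**Figure D2:**
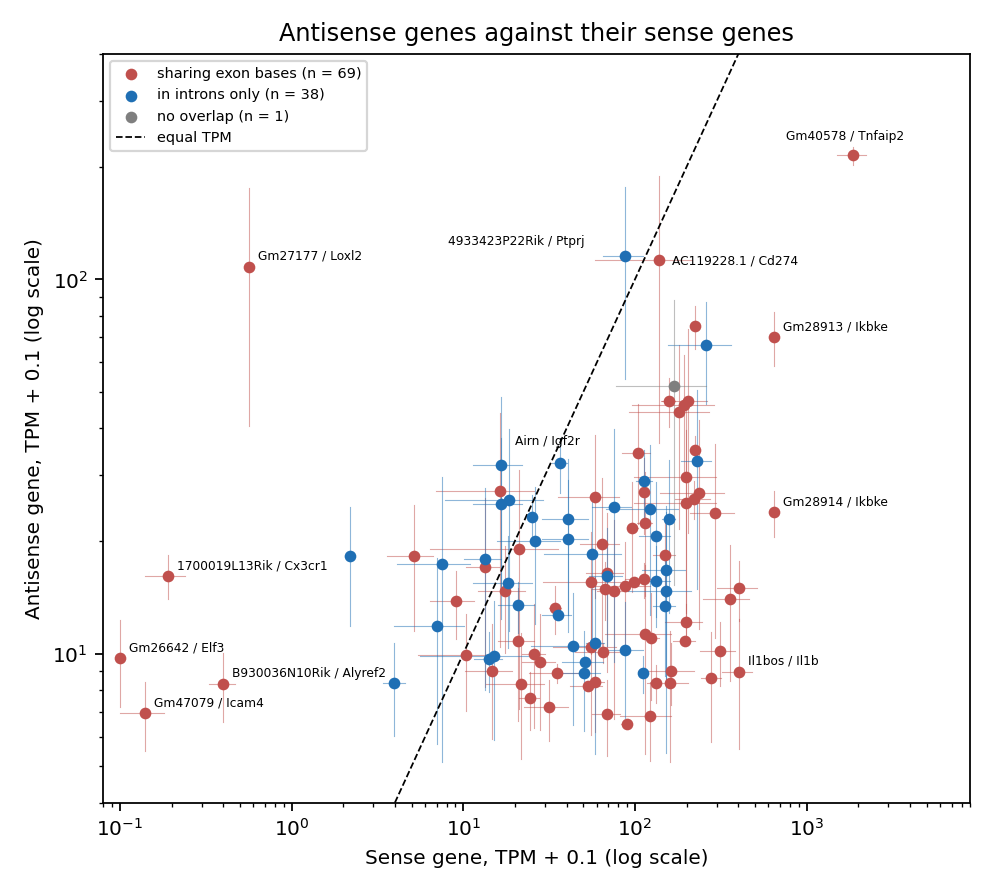
Mean TPM + 0.1 of each antisense gene (vertical, log scale) against that of its sense gene (horizontal, log scale) for 108 pairs; thin lines join the values of the 2 libraries and colours give the kind of overlap. Most points lie right of the dashed line of equal TPM, and 18 lie left of it.

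In 18 pairs the antisense gene had the higher mean level in the gene table, and in 15 of these in each library. Some orders differed in the second quantification described below. There, for example, Gm48708 lay below Cdyl (mean 18.5 against 76.4 TPM) and Gm26982 below Ghrl (11.4 against 37.1 TPM). Other pairs turned the other way, such as Gm20234 above Slfn2 (215 against 114 TPM) and 2900089D17Rik above Bri3 (64.8 against 23.1 TPM). For 5 of the 18 the sense gene was under 1 TPM in the gene table: Gm27177 with Loxl2, 1700019L13Rik with the chemokine receptor gene Cx3cr1, Gm26642 with Elf3, B930036N10Rik with Alyref2, and Gm47079 with Icam4. Some of these have a second gene close by that was well expressed. Gm26642, at 7.10 and 12.2 TPM, also overlaps 368 exonic bases of the aminopeptidase gene Rnpep, at 92.9 and 136 TPM, whereas Elf3 was listed at 0. 1700019L13Rik, at 18.2 and 13.9 TPM, starts 123 bases from Csrnp1, a nuclear protein gene, at 49.3 and 75.0 TPM, whereas Cx3cr1 was at 0.0400 and 0.140 TPM.

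The other 13 faced a sense gene of 1 TPM or more. Gm30329 was at 11.8 and 24.6 TPM, 8.77-fold above 1700011L22Rik. 1600020E01Rik was at 11.4 and 24.8 TPM, 3.59-fold above the RNA-binding protein gene Pcbp1. Its 5′ end lies 74 bases from Pcbp1, but the transcript that starts furthest in, at chr6:86547981-86582466, held 56.9% and 70.4% of its TPM. Gm15261, in introns of Arhgap6, was at 5.04 and 29.6 TPM, 2.34-fold above it, and Gm47689 was 2.13-fold above Ppp2r5e. Gm16006 and 9330154K18Rik, both in introns of the homeobox gene Zhx2 (11.3 and 21.9 TPM), were at 15.0 and 48.5 TPM and at 12.2 and 37.6 TPM. The well-known nuclear RNA gene Tug1, at 8.03 and 25.9 TPM, was above its divergent neighbour Morc2a (10.3 and 16.1 TPM) in replicate 2 but not in replicate 1. Gm12000 in Ikzf1 and 4933423P22Rik in Ptprj were likewise above the sense gene in replicate 2 but not in replicate 1. In the second quantification 9330154K18Rik lay below Zhx2 (mean 24.0 against 42.3 TPM) and Gm12000 below Ikzf1 (32.0 against 56.1 TPM). Gm30329, 1600020E01Rik, Gm15261, Gm16006, Tug1 and 4933423P22Rik stayed above their sense genes there in mean level.

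The arrangement of the antisense genes with their sense genes was read from the GENCODE M21 annotation and used no measured value. Exon sequence was shared with a protein-coding gene on the opposite strand by 69 of 112 (61.6%), 38 (33.9%) overlapped introns alone, and 5 (4.46%) overlapped no such gene. Among the 2836 other antisense genes the shares were 56.3%, 35.9% and 7.86%. The antisense gene lay wholly inside the sense gene in 78 cases (69.6%, against 53.5% of the others). It ran across the 5′ end in 13 (11.6%, against 21.2%) and across the 3′ end in 13 (11.6%, against 14.2%). These differences between the well measured and the other antisense genes were not tested.

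**Figure D3:**
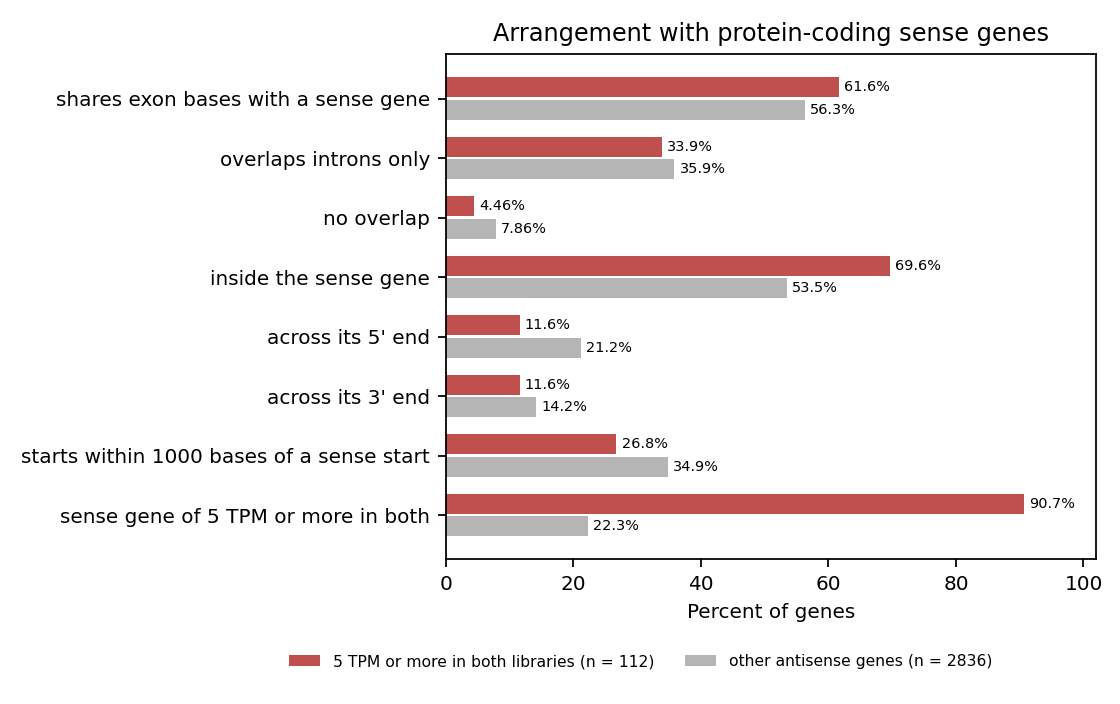
Percent of the 112 well measured antisense genes and of the 2836 other antisense genes (horizontal axis) in each arrangement with protein-coding genes on the opposite strand; the share in the lowest pair of bars is among genes with a sense gene (108 and 2721). The bars for lying inside the sense gene stand at 69.6% and 53.5%, and those for a sense gene of 5 TPM or more at 90.7% and 22.3%.

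Shared exon sequence ran from 3 to 2001 bases, with a median of 297 bases or 17.9% of the antisense gene's exons. It made up 50% or more of the exons of 7 genes: Gm37787, Gm13966, CR974462.3, Gm44876, Gm19412, Gm45187 and Gm37885. All 405 exonic bases of CR974462.3 lie opposite exons of Brd2, and this gene also overlaps H2-DMa on its own strand, so its 8.10 and 12.0 TPM are uncertain. Expected counts, which split reads between genes that could each have given them, were whole numbers in both libraries for 17 of the 69 exon-sharing genes, 36 of the 38 in introns alone and 5 of the 5 without overlap. Reads were aligned to transcripts, which do not hold introns, so a read from an intron of a sense gene would not be split. Whole counts thus do not show that the reads came from the antisense gene. Of the 112, 104 had a spliced transcript and 77 had a single annotated transcript. They were spread over 20 chromosomes, with 4 on X and 56 on the plus strand.

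For 30 of the 112 (26.8%, against 34.9% of the other antisense genes) the 5′ end lay within 1000 bases of a start of a protein-coding gene on the opposite strand. In 25 of these pairs the neighbour reached 5 TPM in both libraries, and its median level over the antisense gene was 3.04-fold. The closest were 2610020C07Rik, 35 bases from the ribosome biogenesis gene Rsl1d1, and Gm10634 and Gm19412, which start 42 bases from Mthfsl and from Tapbp. Gm19412 was at 7.17 and 10.6 TPM where Tapbp was at 103 and 220 TPM, while 2610020C07Rik was at 6.15 and 12.7 TPM and Rsl1d1 at 6.32 and 7.82 TPM. 4930551O13Rik, 83 bases from the autophagy receptor gene Optn, was at 8.84 and 23.7 TPM against 52.0 and 85.3 TPM. In 9 of the 30 pairs the antisense gene had the higher mean level. For 2 of the 30, 1600020E01Rik and 2900089D17Rik, transcripts starting within 1000 bases of the 5′ end held less than 50% of the TPM in both libraries.

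The libraries were compared gene by gene on counts scaled by TMM factors (trimmed mean of M values, which set the bulk of genes equal between libraries), with an exact 95% interval that covers counting error only. Of the 112 antisense genes, 10 were 2-fold or more higher in replicate 2, and 5 in replicate 1. That is 8.93% and 4.46%, beside 8.66% and 5.59% of all 14442 genes with 20 or more counts. Among the 4795 genes of any type at the same level, 3.04% and 4.5% were past 2-fold. The share of the antisense genes toward replicate 2 was thus near that of all genes and above that of genes at their level, a difference that was not tested, and toward replicate 1 it was near both. With scaling by library size alone, 35 were 2-fold higher in replicate 2 and 0 in replicate 1, beside 28.6% and 1.08% of all 14442 genes, since that scaling moved the median log2 ratio of the antisense genes from 0.09 to 0.70. The libraries are replicates of a single group, so these ratios describe 2 libraries and not a response.

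Toward replicate 2, Gm16094 had the highest ratio. It begins 469 bases from a start of Sp110, a chromatin reader gene of the interferon-responsive Sp family, and stood at 15.2 and 88.2 TPM, a log2 ratio of 1.63 (95% interval 1.30 to 1.98). Gm15261 in Arhgap6 followed at 1.58 (1.43 to 1.74), F630028O10Rik at 1.54 (1.45 to 1.62) and AC119228.1 in Cd274 at 1.49 (1.44 to 1.54). Gm27177 was at 1.18 (1.12 to 1.23). The intervals of these 5 lay wholly past 2-fold. The other 5 were Gm10552 in Sp140 (1.22), Gm16161 in Mtmr14 (1.22), Gm47917 in the mannosidase gene Man1a (1.21), A530040E14Rik (1.16) and Gm16712 across the end of Ebi3, a cytokine subunit gene (1.12). Gm16161 rested on 20 and 98 counts, and its interval ran from 0.51 to 1.99. In the second quantification Gm10552 (0.64), Gm16161 (0.74), A530040E14Rik (0.98) and Gm16712 (0.88) were inside 2-fold.

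Of those 10, 3 belong to a stretch of chromosome 1 with several Sp genes. Gm10552 at 10.8 and 39.6 TPM and A530040E14Rik at 7.01 and 30.8 TPM lay there with Gm16094, and so did Gm17017, at 12.8 and 46.4 TPM with a log2 ratio of 0.89. The sense genes there tilted the same way: Sp110 by 0.76, Sp140 by 0.73, Sp100 by 0.44 and A530032D15Rik by 1.20. C130026I21Rik, the sense gene with the largest overlap with A530040E14Rik, had a log2 ratio of 1.55 and was itself past 2-fold. Genes of that locus have near-identical copies, so the counts of A530040E14Rik and its sense genes are uncertain.

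Toward replicate 1, 1700019L13Rik had a log2 ratio of -1.36 (-1.51 to -1.20), at 18.2 and 13.9 TPM. Gm26885 opposite Pim1 followed at -1.32 (-1.44 to -1.20), then Gm15556 in Foxp4 at -1.28 (-1.67 to -0.89), Gm44085 in Ppfibp1 at -1.23 (-1.63 to -0.84) and Gm37885 in the calpain gene Capn2 at -1.11 (-1.42 to -0.81). In the second quantification Gm15556 (-0.70), Gm44085 (-0.51) and Gm37885 (-0.59) were inside 2-fold. In the gene table all 5 had the lower TPM in replicate 2, where most antisense genes had the higher. In the second quantification Gm26885 (20.4 and 35.0 TPM) and Gm44085 (65.8 and 109 TPM) had the higher TPM in replicate 2. There 1700019L13Rik (16.6 and 14.4 TPM) kept the lower. The sense genes of the 5 stayed closer to equal in the gene table: Pim1 had a log2 ratio of 0.03, Ppfibp1 of -0.16, Capn2 of -0.63 and Foxp4 of -0.71. Cx3cr1, near 0 TPM, was the exception at 1.01.

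Over the 105 pairs whose genes both had a ratio (20 or more counts over the libraries), the library log2 ratios of antisense and sense gene had a Spearman correlation of 0.482 and a Pearson correlation of 0.446. The pairs share their libraries, and exon-sharing pairs may share reads. Pairs that overlap in introns alone may share reads too, since no strand setting was given. These correlations are therefore given as a description. The Spearman correlation was 0.456 among the 66 exon-sharing pairs and 0.432 among the 38 pairs that overlap in introns alone. Of the 9 antisense genes higher in replicate 2 that have a sense gene, 7 had a sense gene with a ratio on the same side, with a median of 0.73 over the 9. The exceptions were Gm27177, whose sense gene Loxl2 was at -1.14, and Gm16161, where Mtmr14 was at -0.22. Loxl2 was barely detected in the gene table but had a mean of 16.6 TPM in the second quantification. Over the 91 pairs with the antisense gene inside 2-fold, the median ratio of the sense genes was -0.13. Toward replicate 1, the sense gene lay on the same side in 3 of 5 pairs.

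**Figure D4:**
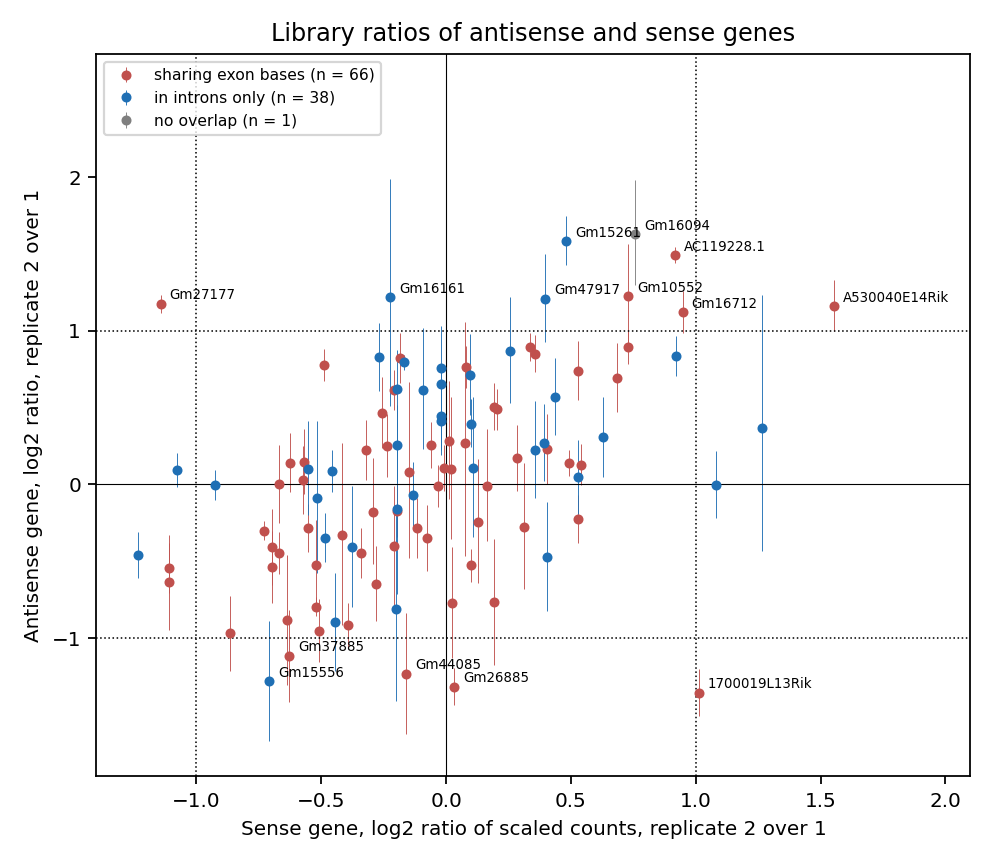
Log2 ratio of TMM-scaled counts, replicate 2 over replicate 1, of each antisense gene (vertical, bars are exact 95% counting intervals) and of its sense gene (horizontal) for 105 pairs, coloured by the kind of overlap. Dotted lines mark 2-fold; named points are antisense genes past 2-fold, and points run from lower left to upper right with a Spearman correlation of 0.482.

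The authors' second quantification, made directly from the reads, gave higher levels for most of the antisense genes. Its mean TPM over that of the gene table had a median of 1.46, and 107 of the 112 also reached 5 TPM in both libraries there. The ratio was 2 or more for 31 genes and within 1.5-fold of equality for 59. The median was 1.71 for the 38 genes in introns alone, 1.21 for the 69 exon-sharing genes. Among genes of other types at the same level it was 1.38 for the 4133 protein-coding, 1.81 for the 4 bidirectional promoter lncRNA and 1.08 for the 56 lincRNA genes, and 2.48 for the other antisense genes with a level, so higher values were not particular to the well measured antisense genes. Gm44649 in Iqgap1 (8.93-fold), Gm16174 in Bcl3 (8.90-fold) and Gm20234 across the 3′ end of Slfn2 (8.85-fold) had the highest ratios: Gm16174 was at 53.0 and 114 TPM there, against 9.07 and 9.68 TPM. Genes with a ratio of 2 or more had a median of 573 exonic bases against 1568 for the rest. At the other end CR974462.3 was at 0 and 4.48 TPM in the second quantification.

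**Figure D5:**
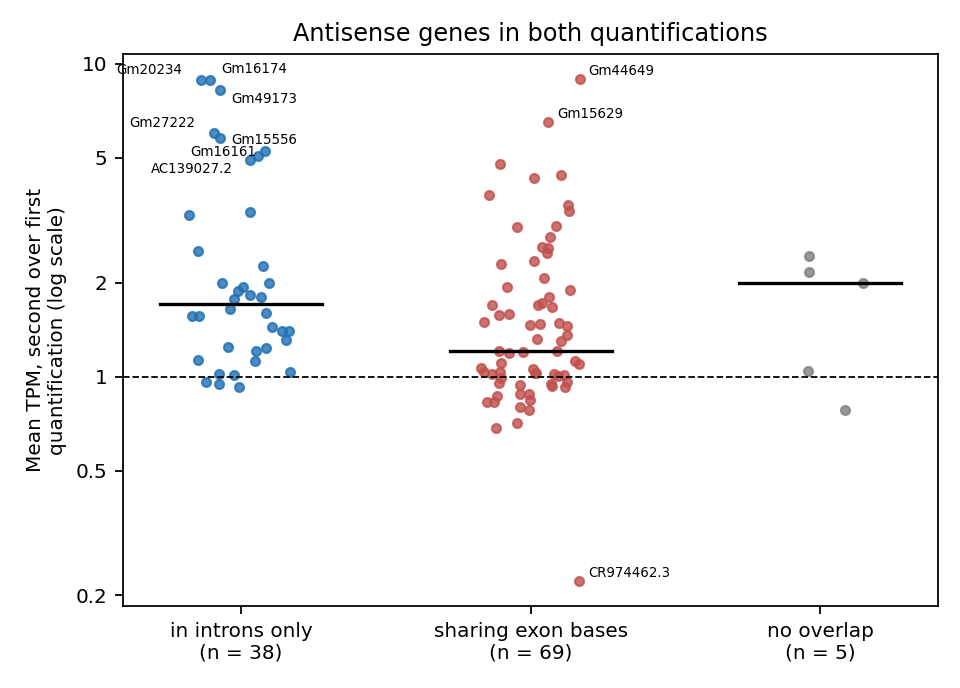
Mean TPM of each antisense gene in the second quantification over that in the gene table (vertical, log scale), by kind of overlap with protein-coding genes; black bars are medians, 1.71, 1.21 and 1.99 from left to right. Named genes have a ratio of 5 or more or under 0.5, and the dashed line marks equal levels.

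No source used here says whether reads were counted by strand, so reads from introns or exons of a sense gene cannot be told apart from reads of an antisense gene across them. Of the 50 antisense genes that lie in introns of sense genes of 50 TPM or more, 17 were under 1 TPM in mean level and 16 were among the well measured genes. Of the 81 that share exon bases with such sense genes, 16 were under 1 TPM and 42 were among the well measured. In the second quantification 9 of the 50 and 6 of the 81 were under 1 TPM. Of the antisense genes under 1 TPM in the gene table, 4 of the 17 and 4 of the 16 were at 5 TPM or more there.

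The genes nearest the level limit differed little from each other in their lower library. Just inside were AC133523.2 (5.02 TPM), Gm15261 (5.04), Gm26626 (5.08), Gm48342 (5.13) and Gm47071 (5.23). Just outside were Gm16315 (4.95 TPM), AC061963.1 (4.94), Gm5577 (4.92), Gm17056 (4.90) and Gm13563 (4.90). All 10 had the higher level in replicate 2, where the last 5 ranged from 6.55 to 15.3 TPM.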

How the data were processed

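The members and all lists were chosen with earlier results of these data known. The authors deposited a table of expected counts and TPM per gene and per transcript for each library, made by aligning reads to mm10 transcripts of GENCODE M21, per the deposited text; RSEM names its columns this way. A second transcript table of estimated counts and TPM, which the authors derived directly from the reads, has columns named as in kallisto output and was summed per gene. The aligner, the quantifiers, their versions and any strand setting were not given in the sources used here. All 55536 gene identifiers matched the annotation; 26345 other rows (0.409% and 0.277% of counts) were left out of library sizes.

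Depth was 21453617 and 29638814 expected counts, and from 18 to 4482 (median 254) and from 44 to 21071 (median 598) per antisense gene. Reads were not collapsed by molecular identifiers, as far as the tables show, and intervals cover counting error only. Expected counts were rounded and scaled by TMM factors of 0.809 and 1.24 (edgeR 4.0.16, R 4.3.3; DESeq2 1.42.0 for an alternative). The ratio of replicate 2 over 1 was given an exact (Clopper-Pearson) 95% interval where both libraries together had 20 or more counts, and all 112 passed that filter. No test was run, as there is 1 group. The ratio step was checked on simulated counts. Log2 ratios of TPM used a pseudocount of 0.1, which understates the difference of low genes.

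The sense gene was the opposite-strand gene the symbol names, else the protein-coding gene with the largest overlap, else the nearest start within 5000 bases. Named in the text are the 20 highest genes by mean TPM, those whose symbol names a sense gene, those whose sense gene is on a list, up to 10 past 2-fold in each direction, the 10 highest and 10 lowest ratios to the sense gene, and the 5 genes on each side of the level limit. Genes named beside these, among them those sharing most exon sequence and the closest starts, were chosen after their values were seen. Counts were called whole within 0.005. Alternatives changed the level, the scaling, the filter, the quantification, the pseudocount, the partner and the windows, and left out each library.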

Additional observations from a re-analysis of the deposited data

How the results depend on the processing

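The number of antisense genes at the level depended on the limit and on the table: it was 234 at 2 TPM, 59 at 10 TPM and 297 in the second quantification, of which 107 were among the 112, and from 115 to 210 with a single library used. The median level of the 112 was 24.9 TPM in the second quantification and 58.7 TPM when small RNA and ribosomal DNA genes were left out of the TPM total, and from 10.4 to 20.8 TPM with a single library. The count past 2-fold between libraries was 15 with TMM, with DESeq2 size factors and without the filter on low counts, 20 by TPM relative to the protein-coding median, 13 in the second quantification, 35 by library size alone and 45 at a fold of 1.5. Toward replicate 2 and replicate 1 these were 15 and 5 by TPM, beside 13.8% and 8.37% of all 18696 genes with a value. Without the filter they were 10 and 5, beside 13.6% and 15.2% of 22588 genes. In the second quantification they were 7 and 6, beside 5.61% and 5.30% of 24106 genes. The share over all genes at a fold of 1.5 was not computed. Of the 15 with TMM, 8 stayed past 2-fold in the second quantification and 10 with library size alone. Among the 58 genes with whole counts, a restriction chosen after seeing the data, 6 were past 2-fold, in part because fewer genes were counted. The median log2 ratio of antisense over sense gene was -3.45 from expected counts, which are not scaled by length, and -1.66 over the 54 pairs whose antisense gene had whole counts, also chosen after seeing the data. It ranged from -2.21 to -1.98 with a single library, and under the other 4 alternatives it moved by less than the SD between libraries. Starts near a sense start numbered 18 within 500 bases and 13 when only the sense gene's outermost 5′ end counted. The cause of these shifts was not tested, except where the setting itself sets it. Sharing of exon sequence stayed within 1.5 times its count in both alternatives. No paired analysis was possible because the series has 1 group.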

Other observations

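Antisense genes of the same loci could differ in level. In Mid1 the means were 75.2 ± 14.0 TPM for Gm15726 and 35.0 ± 4.51 for Gm15247 (SD, n = 2), and in Ikbke 70.2 ± 16.4 for Gm28913 and 23.8 ± 4.73 for Gm28914, with the same order in the second quantification. In Zhx2 and Sp140 the means differed by less than the SD between libraries. With the overlapping sense gene of highest level taken as the partner, a choice made after seeing the data, 15 of 107 antisense genes stayed above it, instead of 18 of 108 by the largest overlap.

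The main limits are the 2 libraries of 1 group, made from different amounts of RNA with the same donor label. They give no contrast and an SD from 2 values. A strand setting was not given in the sources used here, and exon-sharing genes can exchange reads with their sense genes. TPM is relative to everything else in a table, so the limit of 5 TPM admitted different numbers of genes in each library. RefSeq promoters were matched for 20 of the 112, and nothing is said here of the start regions of the rest.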
